A study of Rattus norvegicus with 9 samples.

Results

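Rtp4, Isg15 and 8 other genes that type I interferon is known to induce were followed in liver of old and young male rats. The 10 genes are Rtp4, Isg15, Ifit2, Ifit3, Mx1, Mx2, Usp18, Rsad2, Ifi44 and Bst2, chosen by symbol as a classic interferon-induced set. The count table lists them in capitals (RTP4, ISG15, IFIT2, IFIT3, MX1, MX2, USP18, RSAD2, IFI44 and BST2), and all 10 were found among the 23479 symbols of that table. All 10 also passed the low-count filter that left 12778 genes for testing. The old group consisted of 4 male Wistar rats aged 24 months (old 1 to 4), and the young group of 5 male Wistar rats aged 6 months (young 1 to 5). Wistar is an outbred laboratory strain, no treatment or genetic change is given for either group, and each library holds poly(A) RNA of the liver of a different animal. The study compares liver transcripts between the ages.

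Type I interferons are secreted proteins that most cells can make when they sense viral or misplaced nucleic acid. They bind a receptor of IFNAR1 and IFNAR2 chains, which activates the kinases JAK1 and TYK2 and a transcription factor complex that includes STAT2 and IRF9. That complex binds a DNA element, the interferon-stimulated response element, before many antiviral genes. In liver, hepatocytes, Kupffer cells (the resident macrophages), endothelial cells and passing leukocytes can all respond, so a bulk library adds up their transcripts. A difference in bulk tissue cannot be told apart into more or fewer cells of a type and more or less RNA per cell.

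The response element has a core that can be written GAAANNGAAA, where N is any base. RefSeq promoter windows on the GRCr8 assembly, from 250 bases before to 50 bases after the gene start, were matched by symbol for 5 of the 10 genes, Ifit3, Mx1, Rsad2, Ifi44 and Bst2. No entry was matched for Rtp4, Isg15, Ifit2, Mx2 and Usp18. On either strand the core occurred in 4 of these 5 windows and in 1312 of all 33469 windows of the same length (3.92%). It occurred in 34 of the 65 windows (52.3%) matched among 78 other interferon-induced genes, which are described further on. The Mx1 window did not hold these letters. The 4 stretches of 60 bases that follow show the element before genes of this set. Each is printed 5′ to 3′ on the strand of its gene, with the core or its reverse complement TTTCNNTTTC in capitals.
Ifit3, chr1:241527257-241527316, plus strand: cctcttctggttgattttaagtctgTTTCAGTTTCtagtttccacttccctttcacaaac
Rsad2, chr6:48788233-48788292, minus strand: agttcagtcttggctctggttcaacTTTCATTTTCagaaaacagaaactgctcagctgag
Ifi44, chr2:243303841-243303900, minus strand: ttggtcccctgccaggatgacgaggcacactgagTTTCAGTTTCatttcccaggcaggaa
Bst2, chr16:18255064-18255123, minus strand: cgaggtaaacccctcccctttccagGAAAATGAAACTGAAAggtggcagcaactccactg
The first base of the match lay at position -44 from the gene start in Ifit3, at -147 in Rsad2 and at -26 in Ifi44. The Bst2 stretch holds 2 overlapping matches, which begin at -131 and -125 and share their middle GAAA. Ifit3 and Ifi44 hold the same 10 letters, and the second Bst2 match is their reverse complement. The Ifi44 window holds a further match after the start, which is not printed. These matches are a description of the letters and no record of binding.

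The libraries held 18586798 to 32882704 counts in the old group and 18942191 to 25215805 counts in the young group, and the 10 genes had 24 to 11098 counts each in a library. Values are given as CPM, which puts counts on a common library size after correction of each library by its TMM factor (edgeR's trimmed mean method). Hepatocyte markers identified the tissue, with 204531 to 317791 CPM summed over 8 markers in old and 169796 to 191746 CPM in young livers. All counts of old 1 were even numbers, and halving them left 2 of the 10 genes called. Old 3 stood apart in white blood cell transcripts, with 274 CPM summed over 12 neutrophil and monocyte markers, against 11.9 to 18.3 CPM in the other old and 7.38 to 15.0 CPM in the young libraries. Young 2 to 5 held 84.2 to 110 CPM of 12 heart muscle markers, while the old libraries held 0.762 to 1.13 CPM and young 1 held 0.838 CPM.

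Old livers held more transcript of Rtp4 and Isg15. All 10 genes had a log2 fold change above 0, with a median of 1.14 against 0.01 over all genes tested. The difference was past the threshold for Rtp4 and Isg15 and for none of the other 8. The threshold was a Benjamini-Hochberg adjusted p of 0.05 over all 12778 genes in edgeR's quasi-likelihood test, which is two-sided. Of the 10 genes, 2 were called higher and 0 lower, where 0.657% of all genes tested were called higher. The whole table gave 84 higher and 44 lower calls, and 72 higher and 208 lower calls when libraries were scaled by their totals alone, under which the median of all genes was -0.17. Both genes were called under that scaling as well. At an unadjusted p under 0.05, 6 of the 10 genes were higher, against 8.94% of all genes. DESeq2 called 4 of them higher (3.02% of all genes) and limma-voom 1 (0.321%). In 8 of the 10 genes the highest old library was old 3, as it was for 26.3% of all genes.

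**Figure D1:**
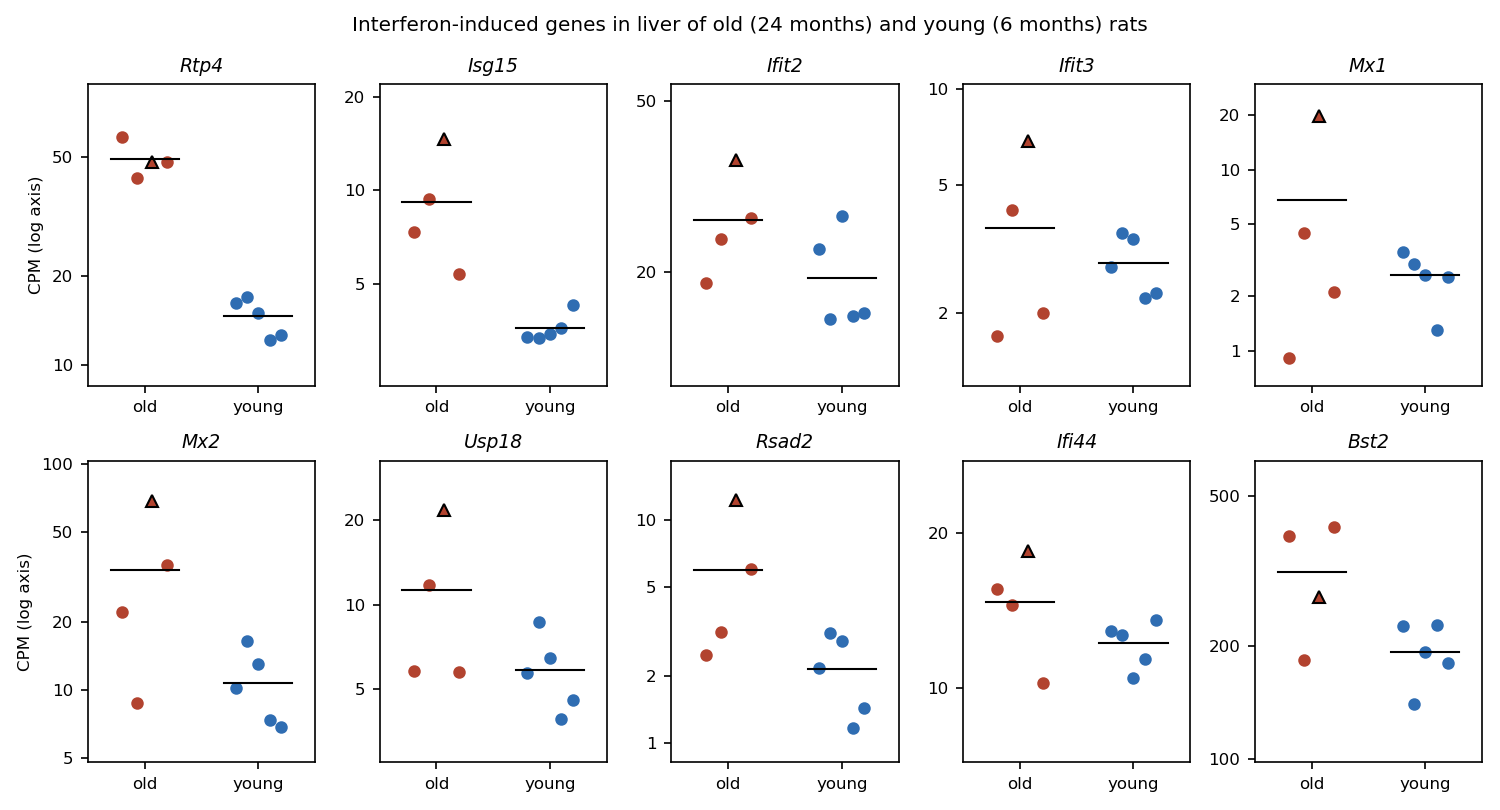
CPM of the 10 genes in each library on log axes, with old livers left (red, n = 4) and young livers right (blue, n = 5). Each point is 1 animal, the triangle is old 3 and the horizontal line is the group mean. Rtp4 and Isg15 are the 2 genes whose groups do not overlap, and the triangle is the highest old point in 8 panels.

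Rtp4 encodes receptor transporter protein 4, a Golgi chaperone of G protein-coupled receptors that also restricts flavivirus replication in mouse and bat cells. It was present at 58.4, 42.6, 48.0 and 48.1 CPM in old 1 to 4, against 16.2, 17.0, 15.0, 12.2 and 12.7 CPM in young 1 to 5. The lowest old liver thus lay 25.7 CPM above the highest young one, and the old livers varied little among themselves. The means were 49.3 ± 6.59 CPM in old livers (SD, n = 4) and 14.6 ± 2.12 CPM in young livers (SD, n = 5). On the log2 scale the difference was 1.75 ± 0.13 (SE, edgeR adjusted p = 0.000278), higher in 4 of 4 old animals. Rtp4 was called in all 9 fits that each left out 1 library, with log2 fold changes of 1.66 to 1.81 and adjusted p values of 0.000424 to 0.00172. Without old 3, the library of high white cell transcripts, the change was 1.77 (adjusted p = 0.00132). Its highest value, 58.4 CPM, was in old 1, the library with the lowest sum of Kupffer cell markers (126 CPM). Young 1, which lacked the heart transcripts, had 16.2 CPM, inside the 12.2 to 17.0 CPM of young 2 to 5. The part of white cells, Kupffer cells or heart tissue in the Rtp4 difference was not tested.

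Isg15 encodes a ubiquitin-like protein that is coupled to other proteins during an interferon response. Old 1 to 4 held 7.33, 9.37, 14.6 and 5.37 CPM, against 3.35, 3.34, 3.44, 3.59 and 4.25 CPM in young 1 to 5. The young livers lay close together, while the old livers spread over a wider range, with old 3 highest and old 4 nearest to the young group. The means were 9.17 ± 3.98 CPM in old livers (SD, n = 4) and 3.60 ± 0.382 CPM in young livers (SD, n = 5). The difference on the log2 scale was 1.35 ± 0.25 (SE, edgeR adjusted p = 0.0422). Of the 9 fits that left out 1 library, 2 kept the call, those without old 3 (log2 fold change 1.03, adjusted p = 0.0465) and without old 4 (adjusted p = 0.0164). The call was lost without any 1 of the young libraries, without old 1 and without old 2, with adjusted p values up to 0.113 at log2 fold changes of at least 1.32. Old livers lay above every young liver for these 2 of the 10 genes, where that held for 3.40% of all genes tested.

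Usp18 encodes the protease that removes ISG15 from its targets and also blocks signalling at IFNAR2. It lay at 5.78, 11.7, 21.8 and 5.73 CPM in old 1 to 4, against 5.68, 8.64, 6.46, 3.89 and 4.56 CPM in young 1 to 5. The groups overlapped, since old 1 and old 4 lay within the young range and only old 2 and old 3 lay above it. Its log2 fold change of 0.94 ± 0.41 did not pass (adjusted p = 0.301), and it was 0.39 without old 3 (adjusted p = 0.541).

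Mx1 and Mx2 encode dynamin-like GTPases that block viruses, in rats with the Mx1 protein in the nucleus and the Mx2 protein in the cytoplasm. They are close paralogs, so their counts are uncertain where reads fit both. Mx1 lay at 0.917, 4.48, 19.7 and 2.12 CPM in old 1 to 4, against 3.54, 3.04, 2.64, 1.31 and 2.56 CPM in young 1 to 5. Old 1 was the lowest and old 3 the highest of all 9 livers, so the old group enclosed the young one. Old 3 held 7.53 times the young mean. The log2 fold change of 1.37 ± 0.75 (adjusted p = 0.410) turned to -0.10 without old 3 (adjusted p = 0.932).

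Mx2 lay at 22.2, 8.74, 69.0 and 35.9 CPM in old 1 to 4, against 10.2, 16.5, 13.0, 7.38 and 6.82 CPM in young 1 to 5. Here 3 old livers lay above every young one, and old 2 lay inside the young range. For Mx2 the log2 fold change of 1.65 ± 0.51 did not pass (adjusted p = 0.169). It was 1.05 without old 3 (adjusted p = 0.272) and 1.97 without old 2, where it passed (adjusted p = 0.0477) and 0.887% of all genes were called higher.

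Rsad2 encodes viperin, a radical SAM enzyme whose nucleotide product stops viral RNA synthesis. It lay at 2.47, 3.16, 12.3 and 6.01 CPM in old 1 to 4, against 2.17, 3.12, 2.88, 1.17 and 1.44 CPM in young 1 to 5. Old 3 and old 4 stood well above the young livers, old 2 just above and old 1 among them. The log2 fold change was 1.47 ± 0.48 (edgeR adjusted p = 0.179), and 0.84 without old 3 (adjusted p = 0.295). Rsad2 and Mx2 were the 2 further genes that DESeq2 called, with adjusted p values of 0.0435 and 0.0147.

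Ifit2 and Ifit3 encode tetratricopeptide repeat proteins that form complexes on foreign RNA, and they belong to a family of related genes. Ifit2 lay at 18.9, 23.9, 36.3 and 26.7 CPM in old 1 to 4, against 22.7, 15.6, 27.0, 15.8 and 16.1 CPM in young 1 to 5. Only old 3 lay above all young livers. Its log2 fold change was 0.44 ± 0.22 (adjusted p = 0.363), and 0.25 without old 3.

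Ifit3 lay at 1.69, 4.20, 6.87 and 2.00 CPM in old 1 to 4, against 2.78, 3.56, 3.39, 2.23 and 2.31 CPM in young 1 to 5. Old 1 and old 4 lay below every young liver, and old 2 and old 3 above every one. The log2 fold change of 0.36 ± 0.39 (adjusted p = 0.674) turned to -0.14 without old 3 (adjusted p = 0.849).

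Bst2 encodes tetherin, a membrane protein that holds budding virus particles at the cell surface. It lay at 391, 184, 270 and 412 CPM in old 1 to 4, against 226, 140, 192, 226 and 180 CPM in young 1 to 5. It differed from most of the set in that old 4 and old 1 were highest and old 3 was lower than both. Its log2 fold change was 0.70 ± 0.23 (adjusted p = 0.188), and 0.77 without old 3 (adjusted p = 0.186). Bst2 and Rtp4 were the 2 genes of the 10 whose fold change was larger without old 3.

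Ifi44, an interferon-induced gene that is also used as a blood marker of interferon exposure in humans, had the narrowest range of the 10 on the log2 scale. It lay at 15.6, 14.5, 18.4 and 10.2 CPM in old 1 to 4, against 12.9, 12.7, 10.5, 11.4 and 13.6 CPM in young 1 to 5. Old 4 was the lowest of the 9 livers and the other 3 old livers lay above the young range. For Ifi44 the log2 fold change was 0.27 ± 0.16 (adjusted p = 0.446), and 0.14 without old 3.

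**Figure D2:**
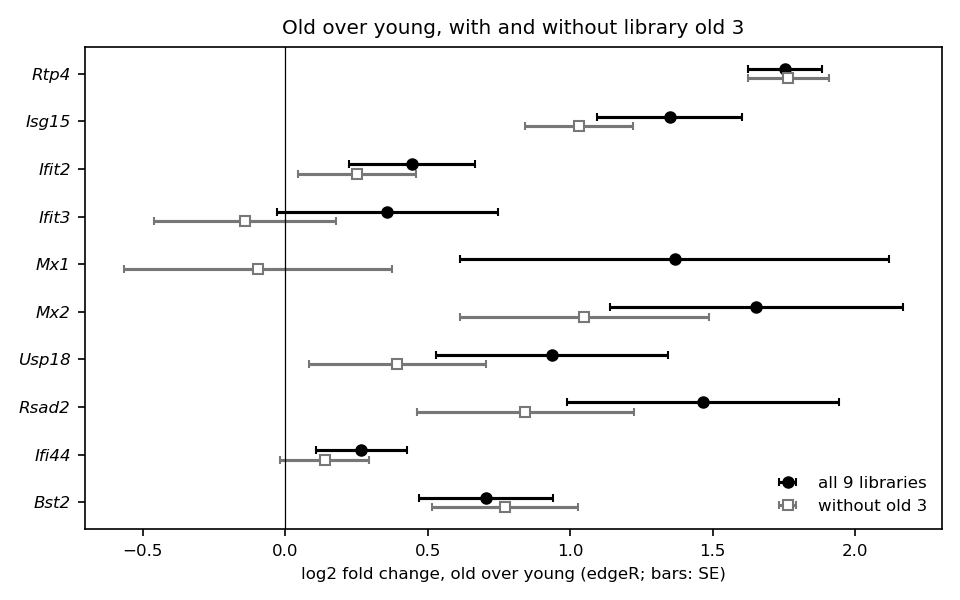
Log2 fold change of old over young livers for the 10 genes with SE bars, from all 9 libraries (filled circles) and without old 3 (open squares). Rtp4 stays at 1.75 and 1.77, while Mx1 goes to -0.10 and Ifit3 to -0.14 without old 3.

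Old 3 was thus the liver in which most genes of the set were highest. The summed CPM of the 10 genes, most of it from Bst2, was higher in old 4 (554) and old 1 (524) than in old 3 (517). When the log2 CPM of each gene was centred on its mean over the 9 livers, the median over the 10 genes was 1.32 in old 3, with all 10 above their mean. It was 0.03, 0.32 and 0.16 in old 1, 2 and 4, and -0.21, -0.00, -0.21, -0.70 and -0.40 in young 1 to 5. Old 3 held the highest value of all 9 livers for 8 of the 10 genes, where it did so for 15.5% of all genes tested. It lay above every young liver in all 10 genes, against 5 genes for old 1, 7 for old 2 and 5 for old 4. Within the young group, young 4 was lowest in 5 of the 10 genes and below the mean of the 9 livers in all 10. For the counts of livers above every young liver, and for those of young 4, the share over all genes was not computed. Without old 3 the median log2 fold change of the set was 0.58, against -0.0032 over all genes, and 2 of the 10 genes were called, again Rtp4 and Isg15, where 0.483% of all genes were called higher.

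**Figure D3:**
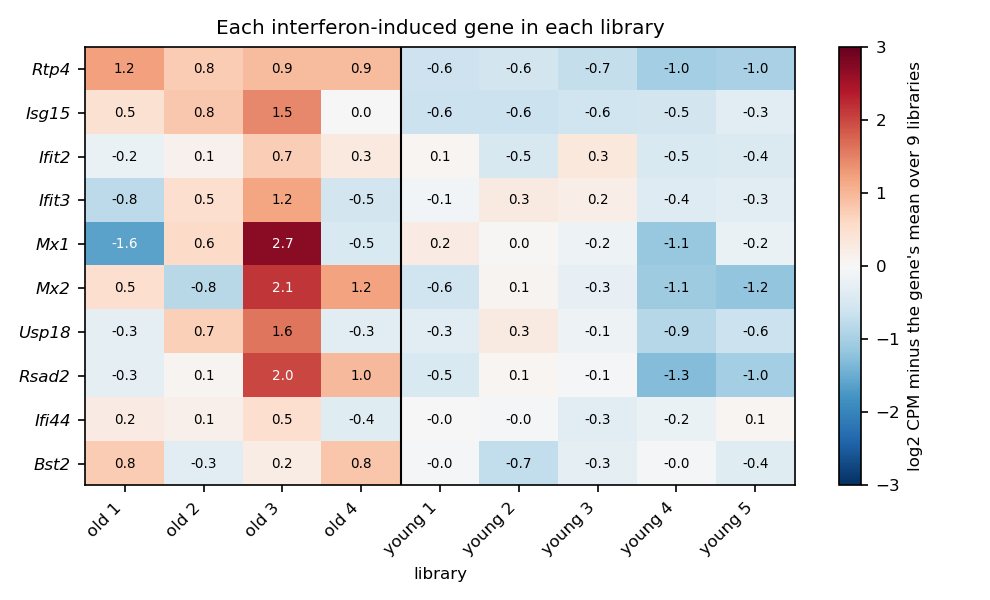
Log2 CPM of each gene in each library minus that gene's mean over the 9 libraries, with old libraries left of the line and young libraries right of it. All 10 genes are above their mean in old 3, and Rtp4 is above its mean in each of the 4 old libraries.

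Sums of some lists of cell type markers were highest in old 3, and those of other lists were not. B cell markers summed to 106 CPM in old 3 and 235 CPM in old 1. Endothelial markers summed to 191 CPM in old 3 and 273 CPM in old 2, and stellate cell markers to 196 CPM in old 3 and 446 CPM in young 3. Kupffer cell markers, 11 of 12 found in the table, summed to 906 CPM in old 3, 126 to 491 CPM in the other old libraries and 231 to 456 CPM in the young ones. Of the 10 Kupffer cell markers tested, 9 were highest in old 3. Clec4f, the highest of them and a Kupffer cell lectin, lay at 236 CPM in old 3 and 29.1 CPM in old 1. Cd5l was at 0 in every library, where absent RNA cannot be told apart from reads not assigned to that symbol. Of the neutrophil and monocyte markers, Mpo and Elane, which encode granule enzymes, had 0 counts in every young library and 30.4 and 6.41 CPM in old 3. Markers of T and natural killer cells summed to 104 CPM in old 3, 37.2 to 47.6 CPM in the other old libraries and 19.8 to 37.0 CPM in the young ones. Cd4, the highest of them, gave 55.3 CPM of the sum in old 3. It was lowest in old 1 at 8.60 CPM, as was the Kupffer cell marker Csf1r (86.7 CPM in old 3 and 9.52 CPM in old 1). Which cells gave the Cd4 transcripts was not tested. Of the 9 T and natural killer markers tested, 5 were highest in old 3, so the sum does not speak for each marker. The 8 markers chosen for plasmacytoid dendritic cells, leukocytes that make much type I interferon, summed to 40.2 CPM in old 3, 14.1 to 24.0 CPM in the other old and 13.7 to 25.7 CPM in the young libraries. Irf8, the highest of them, gave 29.3 CPM of the sum in old 3, and 4 of the 6 tested were highest in old 3. Siglech, the most specific of them, lay at 0.415 CPM in old 3 and 0.389 to 1.32 CPM in young livers. The part of these cells in the levels of Mx1, Mx2, Rsad2, Usp18, Ifit2, Ifit3, Isg15 and Ifi44 was not tested.

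**Figure D4:**
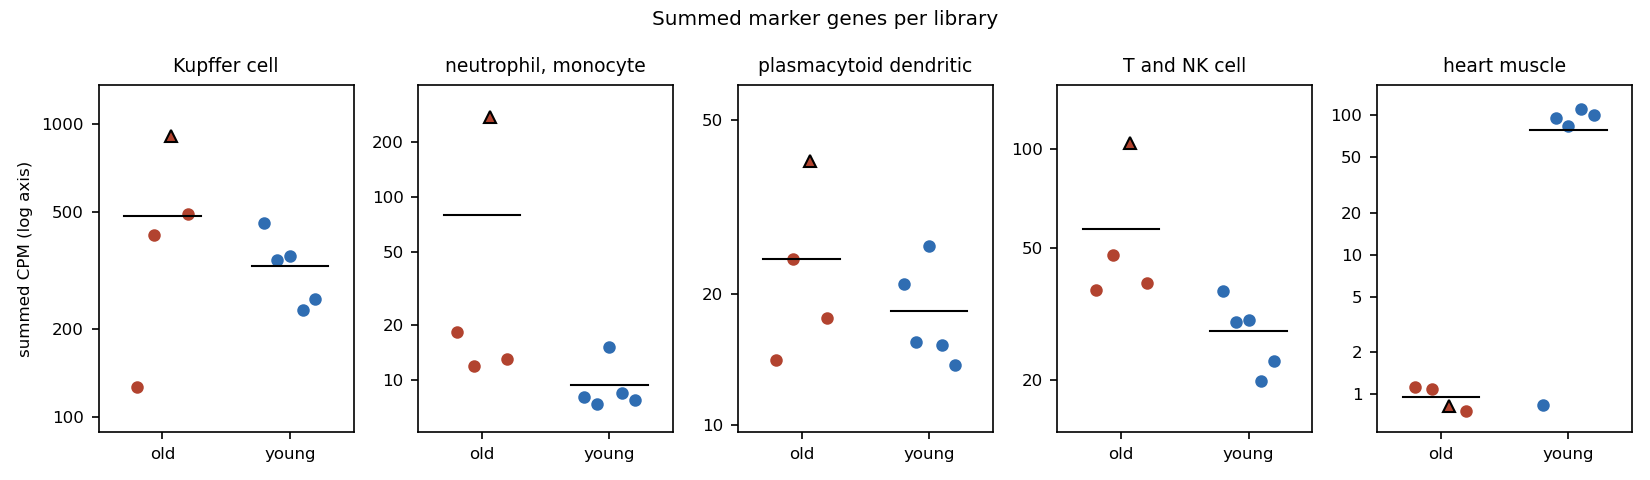
Summed CPM of cell type markers in each library on log axes, with old livers left (red, n = 4) and young livers right (blue, n = 5). The triangle is old 3, which has the highest sum of Kupffer cell, neutrophil and monocyte, plasmacytoid dendritic and T and NK cell markers, and the line is the group mean. Heart muscle markers are high in young 2 to 5 and low in young 1.

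Transcripts of interferon beta and alpha were not detected. The table had 0 counts in all 9 livers for Ifnb1 and for the 5 interferon alpha genes examined. A count of 0 allows up to 3 counts in a library, which equals 0.106 to 0.172 CPM in old and 0.111 to 0.154 CPM in young livers, for counting error only. The limit of 0.106 CPM is that of old 1, whose counts were all even, and may be too low. A 0 in every library can also mean that reads were not assigned to the symbol. The receptor chains lay at 37.8 to 41.8 CPM in old and 39.8 to 49.4 CPM in young livers for Ifnar1, and at 38.5 to 43.0 CPM and 41.1 to 53.4 CPM for Ifnar2. Their log2 fold changes were -0.16 each, with SEs of 0.09 and 0.10 (adjusted p = 0.406 and 0.441).

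Among the receptor and signalling genes, no tested gene passed in edgeR. Of 16 tested genes of receptors and signalling, 0 were called by edgeR, 2 had an unadjusted p under 0.05, 1 was called by DESeq2 and 0 by limma-voom, and their median log2 fold change was 0.10. Over all genes and in either direction, edgeR called 1.00%, 15.9% had an unadjusted p under 0.05, DESeq2 called 5.13% and limma-voom 0.532%, so the 2 of 16 lay near the share of all genes. Stat2 had a log2 fold change of -0.11 ± 0.13 and Irf9 of 0.32 ± 0.15. Irf7, the factor that amplifies interferon production and is itself interferon-induced, lay at 15.7, 15.9, 76.0 and 14.1 CPM in old 1 to 4, against 9.03 to 12.2 CPM in young livers. Every old liver was above every young one, and old 3 far above the other old ones. The log2 fold change was 1.52 ± 0.50 (adjusted p = 0.190), and 0.53 without old 3 (adjusted p = 0.0863). DESeq2 gave no adjusted p for Irf7, which was counted as not called there. Irf1 lay at 20.4 to 28.8 CPM in old and 11.8 to 18.2 CPM in young livers (adjusted p = 0.110).

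The genes that attach ISG15 to its targets were examined beside Isg15 and Usp18. Of the 4 that were tested, 0 were called by edgeR, 2 had an unadjusted p under 0.05, 2 were called by DESeq2 and 0 by limma-voom, against 15.9% of all genes at that p and 5.13% called by DESeq2. Ube2l6, the conjugating enzyme, lay at 22.2, 19.4, 22.4 and 15.4 CPM in old 1 to 4, against 10.9 to 14.0 CPM in young livers, with no overlap. Its log2 fold change was 0.62 ± 0.13 (edgeR adjusted p = 0.0555). Herc6, the ISG15 ligase in mouse, lay at 7.33, 8.45, 32.1 and 13.0 CPM in old 1 to 4, against 4.76 to 7.01 CPM in young livers (log2 fold change 1.40 ± 0.40, adjusted p = 0.136). Without old 3 that change was 0.74. Uba7, the activating enzyme, had a log2 fold change of 0.22 ± 0.17, and Trim25, which also acts as a ligase, one of -0.30 ± 0.23.

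**Figure D5:**
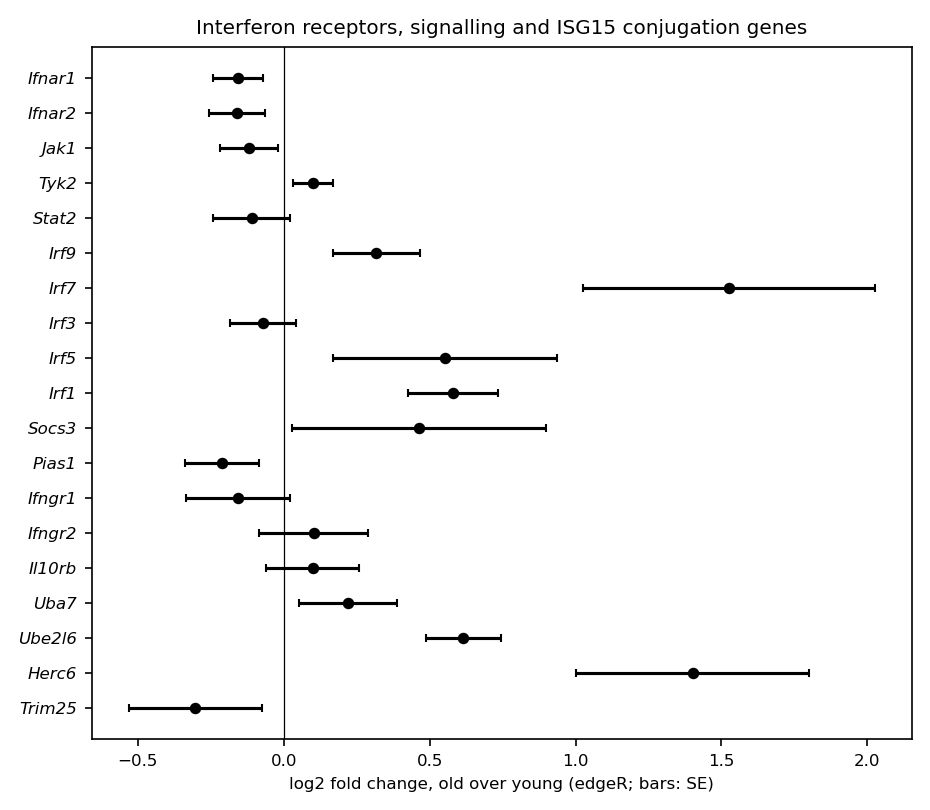
Log2 fold change of old over young livers with SE bars for 19 tested genes of interferon receptors, signalling and ISG15 conjugation, with the receptors at the top. The receptor chains lie at -0.16, and Irf7 (1.52) and Herc6 (1.40) have the highest values and wide bars.

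Among 74 tested interferon-induced genes outside the 10, 2 were called higher and 0 lower, against the 0.657% of all genes called higher. A log2 fold change above 0 was found for 64 of them, with a median of 0.37, and of 0.16 without old 3. Old 3 was the highest of the 9 livers for 49 of the 74, against 15.5% of all genes, and the old livers lay above every young one for 15, against 3.40% of all genes. The list holds Irf7, Ube2l6 and other genes named above. Oas1b, of the antiviral oligoadenylate synthase family, lay at 4.23, 3.68, 6.18 and 3.81 CPM in old 1 to 4 and 1.70 to 2.56 CPM in young livers (log2 fold change 1.06 ± 0.21, adjusted p = 0.0451). It was called in 1 of the 9 fits without a library. Shisa5, an endoplasmic reticulum protein gene, lay at 32.4, 27.1, 33.9 and 27.9 CPM in old 1 to 4 and 18.3 to 23.5 CPM in young livers (log2 fold change 0.59 ± 0.11, adjusted p = 0.0353), and was called in 3 of these 9 fits. Neither was called without old 3 (adjusted p = 0.0762 for Oas1b and 0.0663 for Shisa5). The 2 largest fold changes were those of Ifit1 and Oasl, and both followed old 3. Ifit1, the partner of Ifit2 and Ifit3, lay at 1.62, 0, 22.4 and 4.41 CPM in old 1 to 4 and at 0 to 2.36 CPM in young livers, and Oasl at 22.4 CPM in old 3 and 3.21 to 3.45 CPM in the other old livers, against 1.08 to 2.49 CPM in young livers. The 2 smallest were those of Ifi44l, at 4.79 to 13.1 CPM in old and 11.2 to 17.5 CPM in young livers (log2 fold change -0.72 ± 0.26, adjusted p = 0.216), and Cxcl10, at 1.71 to 2.47 CPM in old and 1.44 to 6.65 CPM in young livers (-0.55 ± 0.40, adjusted p = 0.521). Of 12 tested nucleic acid sensor and adaptor genes, 0 were called by edgeR, with 3 at an unadjusted p under 0.05 (15.9% of all genes), 1 called by DESeq2 (5.13%) and 0 by limma-voom (0.532%).

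The 5 genes with the nearest patterns were found for Rtp4 and for the mean of the other 9 genes. Likeness was the root mean square difference between log2 CPM profiles over the 9 livers, each centred on its mean, among 11589 genes that averaged 1 CPM or more. Nearest to Rtp4 were Sp140 (0.30 on the log2 scale), Ptgis (0.31), the placeholder LOC102553917 (0.31), Grhl2 (0.33) and Ccl5 (0.35). Sp140, which encodes a nuclear body protein, lay at 8.88, 8.05, 10.1 and 8.26 CPM in old 1 to 4, against 4.27, 4.15, 3.96, 3.30 and 3.33 CPM in young 1 to 5. Ccl5, a chemokine gene of T and natural killer cells, lay at 12.1, 8.74, 11.6 and 6.17 CPM in old 1 to 4, against 2.22 to 4.53 CPM in young livers. Among the 5 nearest to the mean of the other 9 genes were Arhgdib (0.12), Arhgap30 (0.15), Laptm5 (0.15) and Lrrc25 (0.16). Arhgdib lay at 9.94, 11.2, 25.0 and 10.5 CPM in old 1 to 4, against 6.61 to 9.01 CPM in young livers. Laptm5, a lysosomal membrane protein gene of blood cells, lay at 32.2 CPM in old 3, 10.7 to 14.5 CPM in the other old livers and 6.61 to 13.1 CPM in young livers. These distances describe the same 9 libraries that gave the fold changes. A distance from 1 gene cannot be compared with a distance from a mean of 9 genes.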

How the data were processed

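The table the authors deposited holds whole-number read counts for each gene symbol, not normalized, in 9 columns that carry the sample titles. Per the submitters' processing notes BWA was the aligner. The version, build, annotation, counting tool and treatment of reads that match several genes are not given in the sources used here. Per the labels' protocols RNA came from a Qiagen RNeasy kit and libraries from an Illumina TruSeq kit (v2) that does not mark strand, so overlapping genes on opposite strands could not be told apart.

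From the counts, genes were filtered with filterByExpr (minimum count 10, minimum total 15), scaled with TMM and fitted over all 9 libraries by edgeR 4.0.16 (glmQLFit, robust; glmQLFTest) in R 4.3.3, without covariates. Alternatives were other scalings and filters, DESeq2 1.42.0, limma-voom (limma 3.58.1), a replicate block, old 1 halved, and libraries left out singly or in groups. Log2 CPM for profiles used a prior count of 2. Profiles and promoter motifs were computed in Python 3.11.15, and RefSeq GRCr8 supplied symbols and promoters only. No 2 libraries of a group agreed within sampling noise.

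The 10 genes, the lists and the tests were chosen with earlier results of these data known. The text names the 10 genes, receptor, signalling and ISG15 conjugation genes, other interferon-induced genes that passed or had the 2 largest or 2 smallest fold changes, the 5 nearest profiles, and the highest or undetected cell markers. Siglech and Laptm5 values were chosen for print after they were seen. Some genes that this rule names are not reported here, though they remain in the counts and medians.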

Additional observations from a re-analysis of the deposited data

Results flagged for a closer look

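In 11 of 90 groups of 4 or 5 livers examined, 1 liver stood farther from its group than Dixon's 95% limit allows, and chance gives about 1 in 20. Of the 10 genes only Isg15 was among them, with 4.25 CPM in young 5 against at most 3.59 CPM in the other young livers, a small gap within a narrow range. Old 3 stood apart with 76.0 CPM of Irf7 (next old liver 15.9 CPM), 22.4 CPM of Oasl (next 3.45 CPM) and 40.3 CPM of Ifngr1, an interferon gamma receptor chain (next 24.1 CPM). The same liver stood apart with 274 CPM of neutrophil and monocyte markers (next 18.3 CPM) and 104 CPM of T and natural killer markers (next 47.6 CPM). Of the 104 CPM, Cd4 alone gave 55.3 CPM, and which cells gave the Cd4 transcripts was not tested. Ifit1 reached 2.36 CPM in young 5, with at most 0.114 CPM in the other young livers. Pias1 was low in old 1 at 8.39 CPM, and Il10rb, a cytokine receptor chain gene, was low in old 4 at 8.30 CPM. Among young livers, young 3 held 15.0 CPM of neutrophil and monocyte markers (next 8.50 CPM), and young 1 held 0.838 CPM of heart muscle markers (next 84.2 CPM).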

How the results depend on the processing

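Over the refits of the 10 single genes, 183 kept direction and side of the threshold, 11 lost a call (10 of Isg15, 1 of Rtp4), 3 gained one (2 of Mx2, 1 of Rsad2) and 3 changed sign. Those were Ifit3 without old 3 (-0.14; -0.14 to 0.60 with each library left out), and Mx1 without old 3 (-0.10; -0.10 to 1.74 with each library left out) and without old 3 and old 4 together (-0.0017). Of the 10 genes, 2 were called; the count was 4 with DESeq2, 1 with limma-voom, 1 with a replicate block, 1 to 2 with each library left out, and 0 without young 2 to 5 together (edgeR; 2 at an unadjusted p under 0.05, no other tool run). In that last fit young 1 alone stood for the young group and was assumed to vary like the old livers, and Rtp4 lay at a log2 fold change of 1.61 (adjusted p = 0.45). Of the other interferon-induced genes, 2 were called; the count was 14 with DESeq2, 1 with limma-voom, 0 with totals-only scaling, 0 with a replicate block, 0 without old 3 and old 4 together (each 23 at an unadjusted p under 0.05), 0 without young 2 to 5 together (8 at that p), and 0 to 4 with each library left out. Over all genes 128 were called; the count was 280 with totals-only scaling (72 higher, 208 lower), 655 with DESeq2 (386 higher, 269 lower), 68 with limma-voom (41 higher, 27 lower), 43 with a replicate block (27 higher, 16 lower), 30 to 201 with each library left out, and 0 without young 2 to 5 together (429 at an unadjusted p under 0.05). The cause of these shifts was not tested. Among the other interferon-induced genes, DESeq2 gave no adjusted p for Irf7 and Oasl, which were counted as not called there. Same-numbered old and young livers did not pair, since 1 of 4 pairs correlated above 0.1 and 1 of 4 old livers correlated best with its own number, so the block has no basis in the design. Genes of few counts, such as Mx1, Ifit3, Rsad2 and Isg15, carry the largest counting error. Isg15 had 73 to 90 counts in each young library.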
